A study of Homo sapiens with 6 samples.

Results

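The 45 genes described here encode the enzymes that build glycosylphosphatidylinositol (GPI) anchors and N-glycans in the endoplasmic reticulum, and they are 45 of the 58302 genes listed. They were taken by gene name and divided by step into 25 genes of GPI anchor assembly and remodelling, 14 genes of dolichol-linked sugar synthesis and 6 subunits of the oligosaccharyltransferase. RNA-seq was done on a human liver cancer line, HCCLM3, transfected with an antisense oligonucleotide (ASO) against SCARNA13 in 3 libraries (SCARNA13 ASO) or with a control oligonucleotide in 3 libraries (Control ASO). All libraries came from this single line, and no separate culture is named for any of them, so p-values measure the spread between libraries, which may be technical. The members were selected on their pathway with their FPKM differences between SCARNA13 ASO and Control ASO already known. These differences are therefore given as a description, and nothing is drawn from how many of them passed a threshold.

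A GPI anchor is a glycolipid that holds certain proteins on the cell surface. It is built on phosphatidylinositol by stepwise addition of glucosamine, an acyl chain on inositol, mannoses and ethanolamine phosphates, and is then joined to the protein by a transamidase. N-glycans are built as an oligosaccharide on the lipid dolichol and transferred to asparagines of entering proteins by the oligosaccharyltransferase. Both routes take mannose from dolichol phosphate mannose, and the liver, which secretes many glycoproteins, uses the N-glycan route heavily.

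Levels are fragments per kilobase of gene length, scaled to library size (FPKM), as deposited, from between 20457474 and 25173559 reads per library. SCARNA13 itself had 0.268, 0.383 and 0.468 FPKM in SCARNA13 ASO libraries 1, 2 and 3, against 0.717, 0.683 and 0.556 FPKM in Control ASO libraries 1, 2 and 3. These values rest on 7 reads against 13, a ratio of 0.53 with an exact 95% interval of 0.179 to 1.43, so a fall was not detectable at this depth. SNHG10, its host gene, had 491 reads in SCARNA13 ASO against 657 in Control ASO (ratio 0.736, interval 0.653 to 0.829). These intervals and those below cover counting error only. Both replicate 3 libraries stood apart, correlating at 0.90 to 0.939 with the other numbers and at 0.98 with each other, while replicates 1 and 2 correlated at 0.988 to 0.994. Of 11 liver markers, 3 passed the filter on low values (KRT8, KRT18 and SERPINA1), and ALB, APOB and GPC3 were at 0 in every library. Markers of fibroblasts, endothelium and immune cells had summed levels per list of at most 8.6 FPKM in SCARNA13 ASO and 6.89 FPKM in Control ASO, and only COL3A1 among them passed the filter. In these bulk samples, fewer cells making a transcript and less of it per cell cannot be told apart.

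Of the 45 genes, 44 had a read in some library and 34 passed the filter, a 6-library mean of 1 FPKM or more. Those 34 were 18 of 25 GPI anchor genes, 10 of 14 dolichol genes and all 6 oligosaccharyltransferase genes. The groups of genes lay at different heights. The oligosaccharyltransferase genes had a median level of 61.5 FPKM, from 4.42 for STT3B to 300.7 for DAD1. The dolichol genes had a median of 4.35 FPKM, from 0.376 for ALG11 to 193.2 for DPM3. The GPI anchor genes had a median of 2.05 FPKM, from 0 for PIGY to 100.7 for GPAA1. The plot of each gene's level in each library shows that the libraries of replicate 3 often lie farther from replicates 1 and 2 of their own group than the groups lie from each other.

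**Figure D1:**
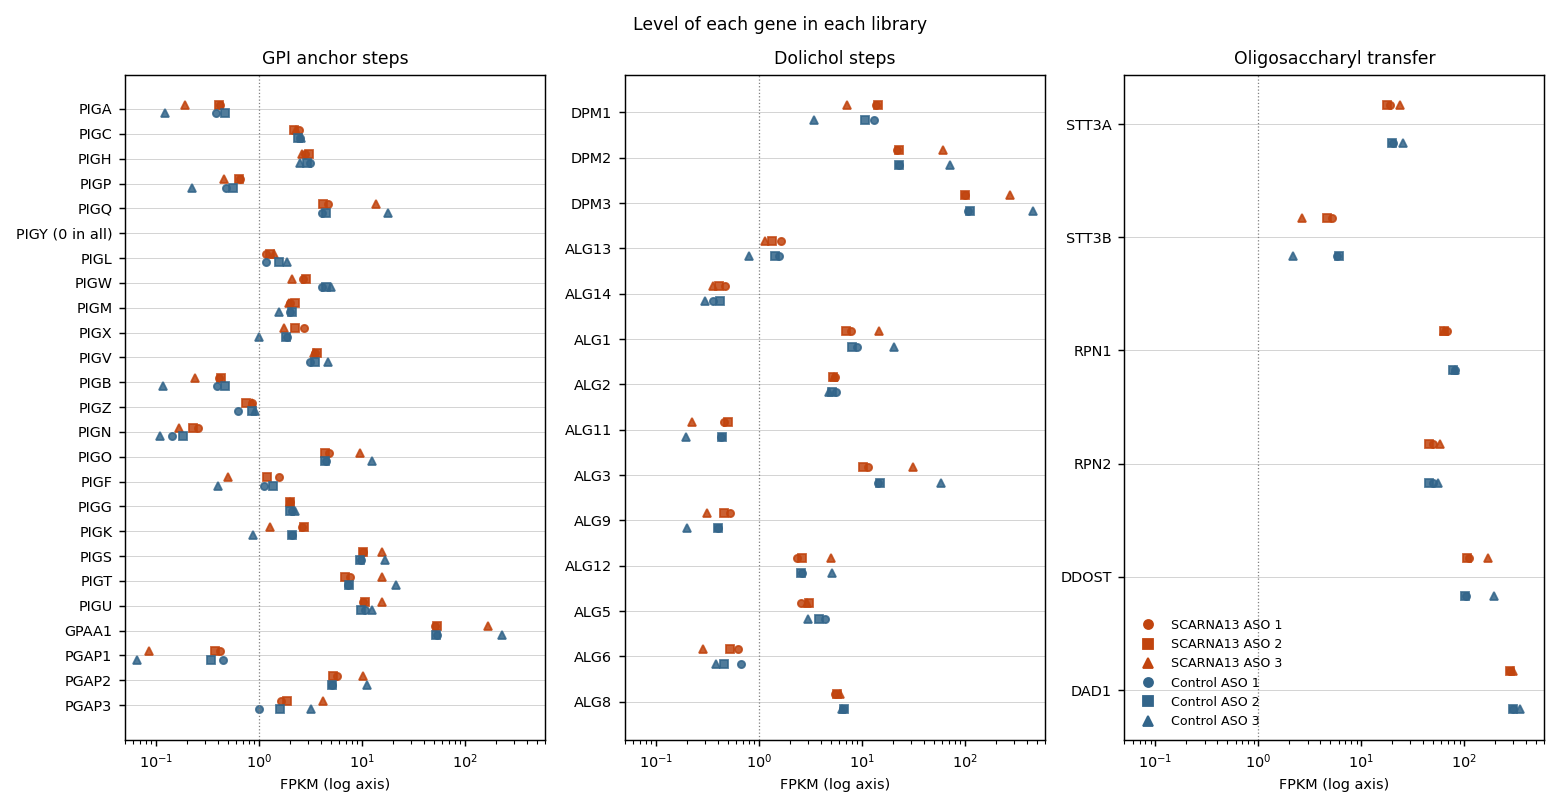
Level of each of the 45 genes (FPKM, log axis) in the 3 SCARNA13 ASO libraries (orange, upper row of each gene) and the 3 Control ASO libraries (blue, lower row), with the symbol giving the replicate number and the dotted line at 1 FPKM. GPAA1 is the highest gene of the GPI anchor steps and DAD1 the highest of the oligosaccharyltransferase, while PIGY, at 0 in all libraries, has no point.

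Differences are given as SCARNA13 ASO minus Control ASO on the log2(FPKM + 0.5) scale with the standard error of the limma fit, which understates the change of low genes. In limma-trend on the deposited values with group as the only term, 0 of 10120 genes tested (0%) and 0 of the 34 members passed a Benjamini-Hochberg adjusted p under 0.05. At an unadjusted p under 0.05 this fit held 173 genes (1.71%), of which PIGW, with an unadjusted limma p of 0.00548, was the only member. With limma-voom, run on reads recovered from the FPKM values, 0 genes passed and 165 had an unadjusted p under 0.05. Because replicate 3 differed along GC content, a second fit removed the GC trend of each library and used the replicate number as a block. It called 526 of 10104 genes (5.21%), 309 higher (3.06%) and 217 lower (2.15%) in SCARNA13 ASO, and among the 34 members it called RPN1 and ALG3, both lower. At an unadjusted p under 0.05 it held 10 members and 3167 genes (31.3%). A fit on replicates 1 and 2 alone with the block called 629 of 10120 genes (6.22%), 336 higher (3.32%) and 293 lower (2.9%), and among them 2 members, RPN1 and PIGW, both lower. These calls lie close to the threshold. In the GC-corrected fit without the filter, tried after the data were seen, the lowest limma adjusted p of a member was 0.199, at RPN1, and without replicate pair 1 or 2 no member was called. Differences below come from the GC-corrected fit with the block unless another is named.

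In that fit the GPI anchor genes tested had a median difference of -0.0053, with 10 below 0 and 8 above. The dolichol genes tested had a median of -0.11, with 6 below 0 and 4 above. The oligosaccharyltransferase genes had a median of -0.11, with 4 below 0 and 2 above. The median over all genes tested was 0.00026. On the deposited values, 12 members that passed the filter were lower in all 3 pairs of same-numbered libraries (4 GPI anchor, 5 dolichol and 3 oligosaccharyltransferase genes), where 29.6% of all genes tested were. Another 5 were higher in all 3 pairs, where 23.9% of all genes tested were. The 3 SCARNA13 ASO values lay below all 3 Control ASO values for 5 members, PIGW, PIGG, ALG8, RPN1 and DAD1, against 4.44% of all genes tested. They lay above them for 0 members, against 4% of all genes tested.

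**Figure D2:**
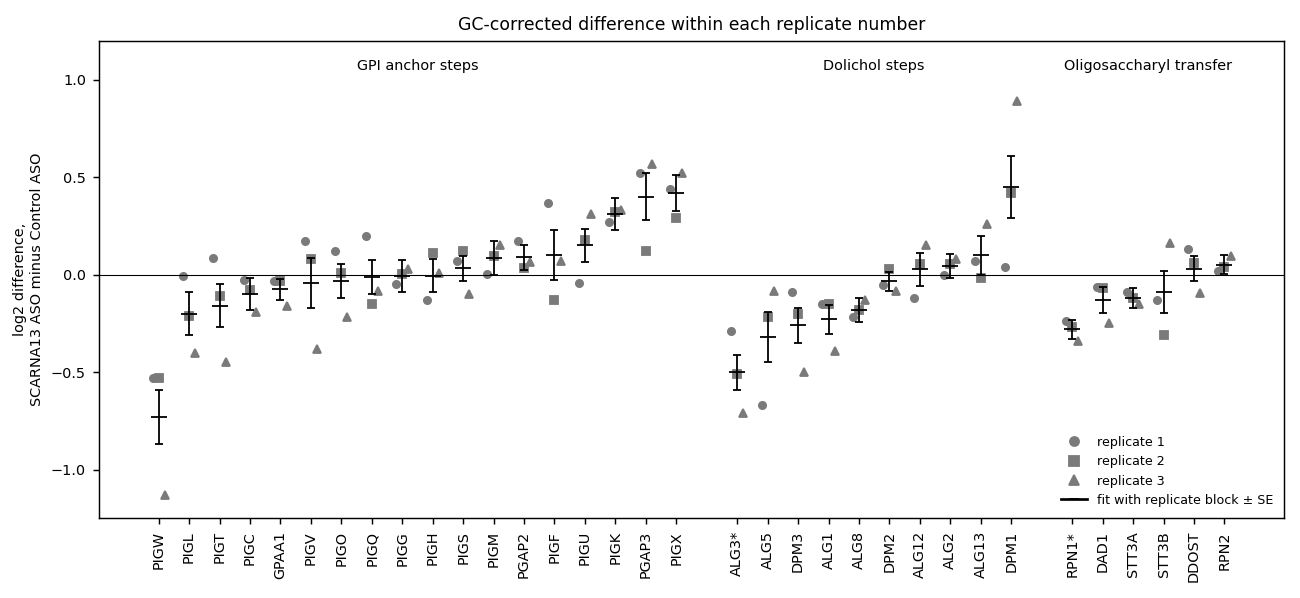
GC-corrected log2 difference, SCARNA13 ASO minus Control ASO, within each replicate number (grey symbols) for the 34 genes that passed the filter, with the fitted difference ± SE (black) and an asterisk on the 2 genes with a limma adjusted p under 0.05 in that fit. PIGW, at -0.73, has the lowest fitted difference and DPM1, at 0.45, the highest, with the replicates of DPM1 spread widely.

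The GPI anchor starts with the transfer of N-acetylglucosamine to phosphatidylinositol by a complex of PIGA, the catalytic subunit, with PIGC, PIGH, PIGP, PIGQ and PIGY. PIGA had 0.414, 0.405 and 0.193 FPKM in SCARNA13 ASO libraries 1 to 3, against 0.385, 0.463 and 0.121 FPKM in Control ASO libraries 1 to 3. These groups overlapped, and at 10 to 78 reads per library PIGA stayed under the filter. PIGP, also under the filter, averaged 0.585 ± 0.113 FPKM in SCARNA13 ASO and 0.422 ± 0.179 FPKM in Control ASO (SD, n = 3 each). PIGC averaged 2.3 ± 0.115 FPKM in SCARNA13 ASO and 2.48 ± 0.0647 FPKM in Control ASO. PIGH averaged 2.84 ± 0.228 FPKM in SCARNA13 ASO and 2.86 ± 0.319 FPKM in Control ASO. The subunit PIGQ averaged 7.52 ± 5.36 FPKM in SCARNA13 ASO and 8.86 ± 7.92 FPKM in Control ASO, a spread set by replicate 3. The fitted differences of PIGC, PIGH and PIGQ were -0.097 ± 0.082, -0.0046 ± 0.084 and -0.012 ± 0.087, and none passed the test. PIGY was listed at 0 in all 6 libraries. All 217 of its exonic bases lie inside the gene PYURF, which is made from the same messenger RNA and was also at 0 in all libraries. How shared reads were assigned is not given in the sources used here, so no level can be read from these zeros. PIGL, which removes the acetyl group, averaged 1.28 ± 0.117 FPKM in SCARNA13 ASO and 1.55 ± 0.348 FPKM in Control ASO, with a difference of -0.20 ± 0.11.

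PIGW adds the acyl chain to inositol, a step that precedes the transfer of mannose. It had 2.67, 2.84 and 2.11 FPKM in SCARNA13 ASO libraries 1, 2 and 3, against 4.11, 4.47 and 4.99 FPKM in Control ASO libraries 1, 2 and 3. Every SCARNA13 ASO library lay below every Control ASO library, and the gap was widest in replicate 3. The reads were 203, 227 and 92 in SCARNA13 ASO libraries and 350, 333 and 183 in Control ASO libraries, a ratio of 0.594 after scaling (interval 0.532 to 0.663). The fitted difference was -0.73 ± 0.14, a change of -39.8%, with a limma adjusted p of 0.0532, just outside the threshold. Without replicate pair 1 or 2 that p was 0.112 or 0.137. In replicates 1 and 2 alone the difference was -0.56 ± 0.064 with a limma adjusted p of 0.0372, and over all alternatives it lay between -0.83 and -0.53. In limma-trend on the deposited values it was -0.73 ± 0.17 with an adjusted p of 1.0, and adjusted p-values over the alternatives ranged from 0.0372 to 1.0.

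PIGW lies at chr17:36535020-36539310 on the plus strand (GRCh38), head to head with MYO19, which encodes a mitochondrial myosin on the other strand. MYO19 exons cover 582 bases (20.8%) of the exonic bases of PIGW, and the library kit is not stated to keep strand, so reads there cannot be assigned with certainty. MYO19 had 4.47, 4.57 and 7.12 FPKM in SCARNA13 ASO libraries 1 to 3, against 4.84, 4.88 and 8.01 FPKM in Control ASO libraries 1 to 3. Its difference was -0.059 ± 0.062, with a limma adjusted p of 0.551. The RefSeq starts of the pair are 119 bases apart (GRCh38.p14). The 118 bases between them, chr17:36534869-36534986 on the plus strand, are shown because the RefSeq starts of both genes flank this stretch. The GENCODE start of PIGW, at 36535020, does not adjoin it. Capitals mark a GC box (GGGCGG, searched on both strands), a motif found in 44.6% of all 27305 promoter windows of 300 bases.
PIGW-MYO19 interval: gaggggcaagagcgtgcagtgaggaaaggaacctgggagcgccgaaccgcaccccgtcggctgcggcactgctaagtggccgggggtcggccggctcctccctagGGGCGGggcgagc

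The mannoses of the anchor are added by PIGM, which PIGX stabilises, then by PIGV, PIGB and, for a side branch, PIGZ. PIGX had 2.73, 2.26 and 1.76 FPKM in SCARNA13 ASO libraries 1 to 3, against 1.89, 1.81 and 0.997 FPKM in Control ASO libraries 1 to 3. Each SCARNA13 ASO library was above the Control ASO library of its number, but the groups overlapped. The difference was 0.42 ± 0.092 with a limma adjusted p of 0.0646, and the read ratio was 1.38 (interval 1.23 to 1.55). Its partner PIGM averaged 2.07 ± 0.137 FPKM in SCARNA13 ASO and 1.89 ± 0.275 FPKM in Control ASO, with a difference of 0.085 ± 0.085. PIGV averaged 3.53 ± 0.129 FPKM in SCARNA13 ASO and 3.77 ± 0.791 FPKM in Control ASO, with a difference of -0.043 ± 0.13. PIGB and PIGZ were under the filter, at means of 0.36 and 0.821 FPKM in SCARNA13 ASO and 0.327 and 0.794 FPKM in Control ASO.

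Ethanolamine phosphate is added by PIGN, PIGO and PIGG, and PIGF is the partner of PIGO and PIGG. PIGN, at 0.217 ± 0.047 FPKM in SCARNA13 ASO and 0.145 ± 0.0377 FPKM in Control ASO, was under the filter. PIGO averaged 6.27 ± 2.96 FPKM in SCARNA13 ASO and 7.09 ± 4.66 FPKM in Control ASO, with a difference of -0.033 ± 0.086. PIGF averaged 1.09 ± 0.546 FPKM in SCARNA13 ASO and 0.963 ± 0.507 FPKM in Control ASO, with a difference of 0.10 ± 0.13. PIGG, although its groups did not overlap, averaged 1.99 ± 0.0136 FPKM in SCARNA13 ASO and 2.11 ± 0.102 FPKM in Control ASO, and its difference was -0.0061 ± 0.081 once GC content was taken into account.

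The transamidase that joins the anchor to a protein consists of the catalytic PIGK with PIGS, PIGT, PIGU and GPAA1. PIGK had 2.6, 2.72 and 1.29 FPKM in SCARNA13 ASO libraries 1 to 3, against 2.09, 2.08 and 0.873 FPKM in Control ASO libraries 1 to 3. It was higher with SCARNA13 ASO in each pair, and the groups overlapped because both replicate 3 libraries were low. Its difference was 0.31 ± 0.083 with a limma adjusted p of 0.0862. GPAA1 had 51.1, 53.6 and 166.8 FPKM in SCARNA13 ASO libraries 1 to 3, against 53, 52.6 and 227.1 FPKM in Control ASO libraries 1 to 3. Here both replicate 3 libraries were far above the others, and the difference was -0.076 ± 0.053. PIGS had 10.2, 10.2 and 15.7 FPKM in SCARNA13 ASO libraries 1 to 3, against 9.88, 9.57 and 16.9 FPKM in Control ASO libraries 1 to 3, with a difference of 0.032 ± 0.066. PIGT and PIGU had differences of -0.16 ± 0.11 and 0.15 ± 0.083. None of the 5 subunits passed the test, and within the complex the level of GPAA1 exceeded that of each other subunit in every library.

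After attachment, PGAP1 removes the acyl chain from inositol, and PGAP2 and PGAP3 exchange the lipid's fatty acids in the Golgi. PGAP3 averaged 2.57 ± 1.43 FPKM in SCARNA13 ASO and 1.95 ± 1.15 FPKM in Control ASO, and its difference was 0.40 ± 0.12 with a limma adjusted p of 0.0974. PGAP2 averaged 7.1 ± 2.81 FPKM in SCARNA13 ASO and 7.13 ± 3.49 FPKM in Control ASO, with a difference of 0.088 ± 0.063. PGAP1 was under the filter, at 0.292 ± 0.18 FPKM in SCARNA13 ASO and 0.287 ± 0.199 FPKM in Control ASO.

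**Figure D3:**
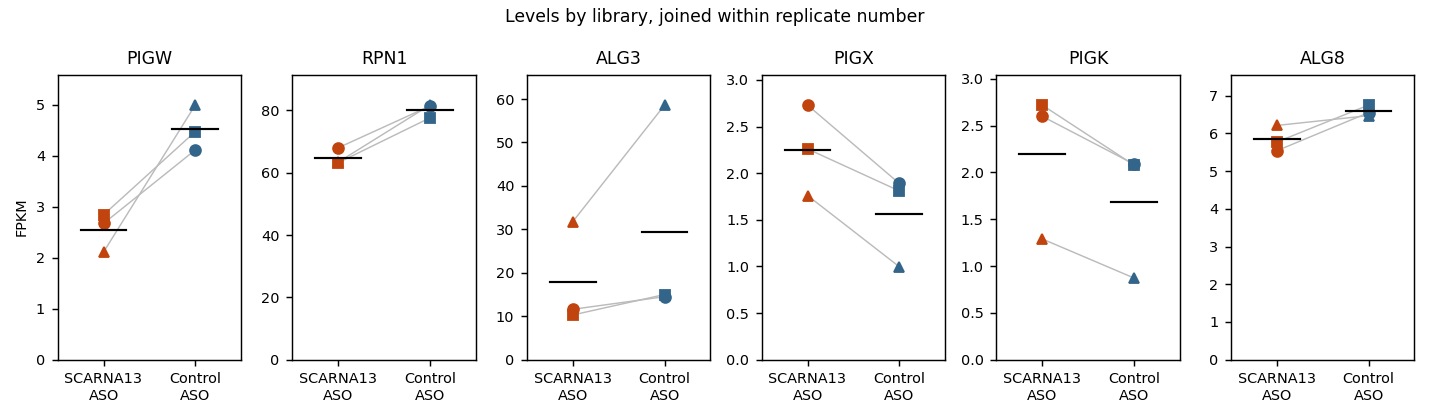
FPKM of 6 genes in each library, SCARNA13 ASO left and Control ASO right, with circles, squares and triangles for replicates 1, 2 and 3, grey lines joining libraries of the same number and black bars at the group means. The groups do not overlap for PIGW, RPN1 and ALG8, while those of ALG3, PIGX and PIGK do, and for ALG3 and PIGK both replicate 3 libraries lie apart from the others.

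Dolichol phosphate mannose, the donor for both routes, is made by DPM1, the catalytic subunit, held in the membrane by DPM2 and DPM3. DPM1 had 13.8, 14.3 and 7.25 FPKM in SCARNA13 ASO libraries 1 to 3, against 13.3, 10.7 and 3.42 FPKM in Control ASO libraries 1 to 3. Its pairs ranged from nearly equal in replicate 1 to well apart in replicate 3, and the difference was 0.45 ± 0.16 with a limma adjusted p of 0.139. In replicates 1 and 2 alone it was 0.23 ± 0.098. DPM3 had 100.5, 100.4 and 277.9 FPKM in SCARNA13 ASO libraries 1 to 3, against 107.7, 112.4 and 460.2 FPKM in Control ASO libraries 1 to 3. It was lower with SCARNA13 ASO in each pair, with overlap between the groups, and the difference was -0.26 ± 0.091 with a limma adjusted p of 0.13, or -0.13 ± 0.043 in replicates 1 and 2 alone. DPM2 had 21.9, 23.3 and 61.6 FPKM in SCARNA13 ASO libraries 1 to 3, against 23, 23 and 72.3 FPKM in Control ASO libraries 1 to 3, with a difference of -0.035 ± 0.05. No subunit of this synthase passed the test. The replicate 3 libraries lay in opposite directions for DPM1 and for DPM2 and DPM3.

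On the cytosolic face, ALG13 and ALG14 add the second N-acetylglucosamine, ALG1 adds the first mannose, and ALG2 and ALG11 add the following ones. ALG1 had 7.86, 7 and 14.7 FPKM in SCARNA13 ASO libraries 1 to 3, against 8.94, 7.97 and 20.7 FPKM in Control ASO libraries 1 to 3. It was lower with SCARNA13 ASO in each pair, with overlap between the groups, and the difference was -0.23 ± 0.073 with a limma adjusted p of 0.108. Exons of other genes cover 42.3% of its exonic bases. ALG11 had the lowest 6-library mean of the dolichol genes, although ALG9 averaged less in Control ASO. It had 0.458, 0.505 and 0.225 FPKM in SCARNA13 ASO libraries 1 to 3, against 0.435, 0.438 and 0.198 FPKM in Control ASO libraries 1 to 3. UTP14C covers 39.7% of its exonic bases, so its level is uncertain. ALG2 and ALG13 had differences of 0.044 ± 0.063 and 0.10 ± 0.10, and ALG14 was under the filter, at means of 0.414 FPKM in SCARNA13 ASO and 0.361 FPKM in Control ASO.

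In the lumen, ALG3 adds the first of the mannoses taken from dolichol phosphate mannose, and ALG9 and ALG12 add the rest. ALG3 fell by 0.50 ± 0.09 on the log2 scale, a change of -29.5%, with a limma adjusted p of 0.0487. It had 11.6, 10.3 and 31.8 FPKM in SCARNA13 ASO libraries 1, 2 and 3, against 14.5, 15 and 58.6 FPKM in Control ASO libraries 1, 2 and 3. Each pair was lower with SCARNA13 ASO, but the groups overlapped, with both replicate 3 libraries far above the others. The read ratio pooled over all libraries was 0.678 (interval 0.65 to 0.706). By pair it was 0.803, 0.69 and 0.543 in replicates 1, 2 and 3. The intervals of replicate 1 (0.742 to 0.868) and replicate 3 (0.511 to 0.578) did not overlap, so the pooled interval understates the spread between pairs. In limma-trend on the deposited values the difference was -0.56 ± 0.69, and without Control ASO replicate 3 that fit gave 0.089. In replicates 1 and 2 alone it was -0.41 ± 0.069, with a limma adjusted p of 0.0505. Leaving a replicate pair out of the GC-corrected fit gave limma adjusted p-values of 0.0547 to 0.151.

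ALG12 averaged 3.36 ± 1.49 FPKM in SCARNA13 ASO and 3.44 ± 1.46 FPKM in Control ASO, with a difference of 0.028 ± 0.085, and ALG9 was under the filter at means of 0.434 FPKM in SCARNA13 ASO and 0.334 FPKM in Control ASO. ALG12 lies head to head with CRELD2, which encodes an endoplasmic reticulum stress-inducible protein and overlaps its exons; CRELD2 had a difference of 0.076 ± 0.077. The endoplasmic reticulum stress element, CCAAT and CCACG with 9 bases between them, searched on both strands, was found in 0.0806% of all promoter windows and, of the 38 members with a window, in that of ALG12 alone. It is shown because it is the rarest motif searched. It starts 134 bases before the RefSeq start of ALG12, at chr22:49918554-49918572 on the minus strand (GRCh38.p14), with the fixed letters in capitals. The element lies between the RefSeq starts of ALG12 and CRELD2 (chr22:49918634, plus strand), nearer to that of CRELD2. By GENCODE the start of CRELD2 lies 291 bases inside ALG12, and the element is then not between the starts. Use of the element by either gene was not tested.
ALG12 element: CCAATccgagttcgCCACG

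Glucose is added to the finished oligosaccharide by ALG6 and ALG8 from dolichol phosphate glucose, which ALG5 makes. ALG8 had 5.54, 5.77 and 6.21 FPKM in SCARNA13 ASO libraries 1 to 3, against 6.55, 6.75 and 6.47 FPKM in Control ASO libraries 1 to 3. The groups did not overlap, the gap being smallest in replicate 3, and the difference was -0.18 ± 0.061 with a limma adjusted p of 0.131. ALG5 averaged 2.88 ± 0.276 FPKM in SCARNA13 ASO and 3.73 ± 0.702 FPKM in Control ASO, with a difference of -0.32 ± 0.13 and a limma adjusted p of 0.167. ALG6 was under the filter, at 0.481 ± 0.175 FPKM in SCARNA13 ASO and 0.506 ± 0.152 FPKM in Control ASO.

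The oligosaccharyltransferase transfers the glycan to protein through either of 2 catalytic subunits, STT3A, which works alongside translocation, and STT3B, which can also act later. RPN1 (ribophorin I), a shared accessory subunit that helps present substrates, fell by 0.28 ± 0.049 on the log2 scale, a change of -17.6%, with a limma adjusted p of 0.0477. It had 68, 63.2 and 63.4 FPKM in SCARNA13 ASO libraries 1, 2 and 3, against 81.4, 77.6 and 81.7 FPKM in Control ASO libraries 1, 2 and 3. The groups did not overlap, and replicate 3 did not stand apart for this gene. The read ratio was 0.813 (interval 0.797 to 0.829), replicates 1 and 2 alone gave -0.28 ± 0.041 with a limma adjusted p of 0.0426, and all alternatives lay between -0.34 and -0.25. In limma-trend on the deposited values the difference was -0.31 ± 0.21, with an adjusted p of 1.0. Leaving replicate pair 1, 2 or 3 out of the GC-corrected fit gave limma adjusted p-values of 0.158, 0.181 and 0.0427.

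RPN2 (ribophorin II), the other ribophorin, had 49.2, 45.5 and 57.8 FPKM in SCARNA13 ASO libraries 1 to 3, against 49.3, 45.2 and 55.6 FPKM in Control ASO libraries 1 to 3. Its groups overlapped and its difference was 0.051 ± 0.048. The ratio of RPN1 to RPN2 within a library was 1.38, 1.39 and 1.1 in SCARNA13 ASO, against 1.65, 1.72 and 1.47 in Control ASO. All 3 ratios in SCARNA13 ASO lay below all 3 in Control ASO. The pair was chosen after its values were seen, so the ratio is a description only.

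STT3A had 18.8, 17.8 and 24 FPKM in SCARNA13 ASO libraries 1 to 3, against 20.2, 19.9 and 25.5 FPKM in Control ASO libraries 1 to 3, with a difference of -0.12 ± 0.049 and a limma adjusted p of 0.167. STT3B had 5.24, 4.67 and 2.67 FPKM in SCARNA13 ASO libraries 1 to 3, against 5.77, 6.01 and 2.16 FPKM in Control ASO libraries 1 to 3, with a difference of -0.089 ± 0.11. The groups overlapped for both catalytic subunits. DAD1, a small shared subunit, had 280.7, 278.9 and 296.8 FPKM in SCARNA13 ASO libraries 1 to 3, against 297.4, 299.2 and 350.9 FPKM in Control ASO libraries 1 to 3. Its groups did not overlap, but its difference of -0.13 ± 0.065 had a limma adjusted p of 0.245. DDOST, another shared subunit, had 111.0, 105.7 and 168.5 FPKM in SCARNA13 ASO libraries 1 to 3, against 102.9, 102.4 and 195.9 FPKM in Control ASO libraries 1 to 3, with a difference of 0.031 ± 0.062. By FPKM the 6 subunits had the same order in all 6 libraries, DAD1, DDOST, RPN1, RPN2, STT3A and STT3B. With the length of the longest transcript instead, RPN1 passed DDOST in Control ASO libraries 1 and 2.

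Across the 34 tested members the deviation of replicate 3 from replicates 1 and 2 followed GC content, with a Pearson correlation across genes of 0.858 in SCARNA13 ASO and 0.857 in Control ASO. Over all 10104 genes with a GC value it was 0.798 in SCARNA13 ASO and 0.792 in Control ASO, and genes are not independent replicates. The members' GC content ran from 34.9% to 66.7%. GPAA1 deviated by 1.66 in SCARNA13 ASO and 2.09 in Control ASO, while DPM1 deviated by -0.91 in SCARNA13 ASO and -1.67 in Control ASO. As the plot of deviation against GC content shows, the trend ran in the same direction in both groups. Its size, which these correlations do not measure, was not the same for every gene. The deviations of GPAA1 and DPM1 were larger in Control ASO. Those of PGAP3 were nearly equal (1.07 in SCARNA13 ASO and 1.06 in Control ASO), and PIGU went the other way (0.54 and 0.27). The part of the trend in the differences was not tested apart from the correction.

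**Figure D4:**
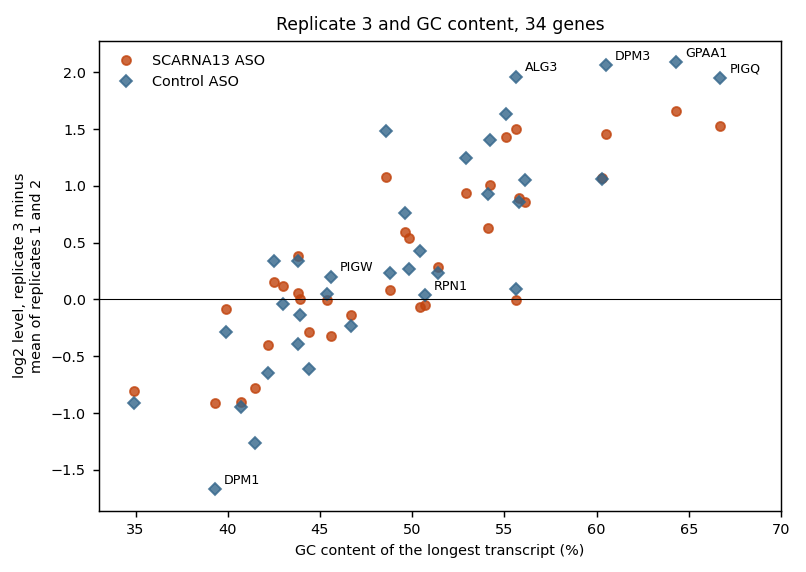
Deviation of replicate 3 from the mean of replicates 1 and 2 (log2) against the GC content of the longest transcript (%) for the 34 tested genes, in SCARNA13 ASO (orange circles) and Control ASO (blue diamonds). Both groups run upward with GC content, at Pearson 0.858 and 0.857, with GPAA1 near the top and DPM1 at the bottom, and RPN1 lies close to 0 in both.

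What the members shared beyond their pathway was examined in the annotation. By GENCODE starts, 10 of the 34 tested members (29.4%) have another coding gene starting on the other strand within 1000 bases, against 18.9% of 8888 coding genes tested. PIGW is not among the 10, since the GENCODE start of MYO19 lies farther off than its RefSeq start. Exons of other genes overlap those of 22 members, and for 7 the overlap exceeds 20%. In the 38 member windows, searched on both strands, the GC box was in 52.6%, against 44.6% of all promoter windows, and the CCAAT box (CCAAT) in 42.1%, against 35.7%. The ETS motif CCGGAAG was in 31.6% of member windows, against 10.7% of all, and the NRF1 motif (GCGC and GCGC with 2 bases between them) in 18.4%, against 8.78%. The set of all promoter windows was not limited to coding genes tested, unlike the comparison of starts above. The higher shares among members therefore cannot be read as particular to this pathway. A match says only that the letters are present.

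The 10 members under the filter that had reads were fitted once more with the GC correction and the block over all genes above 0, a setting chosen after the data were seen. Their differences ran from -0.065 ± 0.13 for ALG6 to 0.24 ± 0.13 for PIGP, and the lowest limma adjusted p among them was 0.524. None of the 10 had groups apart from each other. Of all genes that passed the filter, 4.44% were lower without overlap and 4% higher. The share among genes under the filter was not computed, so nothing is drawn from this count.

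Related genes outside the 45 were read against the shares over all genes in the same fit, 3.06% higher and 2.15% lower in SCARNA13 ASO. Of 8 other GPI anchor genes tested out of 10, 0 passed, with a median difference of 0.0038. The lowest limma adjusted p among them, 0.108, was at CLPTM1L, with a difference of -0.16 ± 0.05. The largest difference was that of ARV1, which takes part in sterol and GPI handling, at 0.28 ± 0.11 (limma adjusted p 0.154). Of 13 other dolichol and oligosaccharide genes tested out of 16, 0 passed, with a median of -0.063 and the lowest limma adjusted p, 0.065, at DOLPP1, a dolichol pyrophosphatase (difference -0.43 ± 0.095). Of the 13 differences, 8 lay below 0 and 5 above. DOLK, the dolichol kinase, had -0.25 ± 0.057 with a limma adjusted p of 0.0659. MAGT1 was higher in each pair, with a difference of 0.33 ± 0.10 and a limma adjusted p of 0.109. SRD5A3, which makes dolichol from polyprenol, had 1.47, 1.48 and 1.18 FPKM in SCARNA13 ASO libraries 1 to 3, against 2.02, 2.01 and 1.73 FPKM in Control ASO libraries 1 to 3. Its groups did not overlap, and its limma adjusted p was 0.0714. Of 9 sugar donor genes tested out of 11, 0 passed, with a median of 0.05. UAP1, which makes the activated form of N-acetylglucosamine, had a difference of 0.32 ± 0.098 with a limma adjusted p of 0.107.

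Downstream of the transfer, 2 of 5 glycan trimming genes tested (of 8 listed) rose and 0 fell, where 3.06% of all genes rose and 2.15% fell. The lists of related genes were also chosen with earlier results of these data known, so nothing is drawn from their counts. PRKCSH, the regulatory subunit of glucosidase II, rose by 0.41 ± 0.057 with a limma adjusted p of 0.038. Its values were 60.3, 62.5 and 141.5 FPKM in SCARNA13 ASO libraries 1 to 3, against 47.8, 46.7 and 115.7 FPKM in Control ASO libraries 1 to 3, higher in each pair. MAN1B1, a mannosidase that marks misfolded glycoproteins, rose by 0.58 ± 0.082 with a limma adjusted p of 0.038. Its exon overlap with other genes, such as its antisense gene MAN1B1-AS1, was not examined. Without strand, any reads from shared bases cannot be told apart. With the replicate block alone the limma adjusted p-values of PRKCSH and MAN1B1 were 0.0905 and 0.0648, and in the GC-corrected fit without the filter both were 0.177. Among 24 GPI-anchored proteins tested of 38 listed, 3 rose (3.06% of all genes did) and 0 fell (2.15% of all genes did), and the median difference was -0.13. The groups did not overlap for 4 of the 24, CD59, EFNA1, EFNA4 and ULBP2, all lower in SCARNA13 ASO. Over all genes tested, 4.44% were lower without overlap and 4% higher. In all 3 pairs, 10 of the 24 were lower, where 29.6% of all genes tested were. Another 6 were higher in all 3 pairs, where 23.9% of all genes tested were. MELTF (melanotransferrin) rose by 0.80 ± 0.099, GPC1 (glypican 1) by 0.40 ± 0.051 and PRNP (the prion protein) by 0.38 ± 0.052, with limma adjusted p-values of 0.0365, 0.0365 and 0.038. In replicates 1 and 2 alone the same 3 genes passed, and LY6E, a surface antigen, fell by 0.27 ± 0.041 with a limma adjusted p of 0.0427. With the replicate block alone the limma adjusted p-values of MELTF, GPC1 and PRNP were 0.0586, 0.128 and 0.0899, and in the GC-corrected fit without the filter they were 0.177, 0.179 and 0.195. PRNP had 81.2, 78 and 64 FPKM in SCARNA13 ASO libraries 1 to 3, against 66.2, 61.6 and 45.5 FPKM in Control ASO libraries 1 to 3, higher in each pair with overlap between the groups.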

How the data were processed

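The RNA libraries, from 1 µg of total RNA each, were prepared using the TruSeq RNA kit of Illumina (per the labels' protocols). The deposited files hold FPKM values, made by the authors, 1 value per gene and library. The submitters' processing notes name TopHat2 2.0.9, Bowtie2 2.0.6 and hg19 without saying what each was used for; how reads were counted and scaled is not given in the sources used here. Positions in the files matched GENCODE 29 (GRCh38) for 97.6% of 58039 gene identifiers, so GRCh38 coordinates are given. FPKM times gene length gave whole reads for 100% of values at a tolerance of 0.01. The implied library sizes differ from the read totals (0.633 to 1.235 times), so the deposited FPKM scale is not plain division by the total.

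Groups and replicate numbers come from the sample titles. limma 3.58.1 (R 4.3.3), limma-trend, was run on log2(FPKM + 0.5). Genes needed a mean of 1 FPKM or more. Group was the only term, and a call was a two-sided Benjamini-Hochberg adjusted p under 0.05 over all genes tested. Deviations from the group means correlated at 0.84, 0.78 and 0.91 for same-numbered libraries, and the numbers were taken as pairs. Crossing replicates 1 and 2 gave 0.81 and 0.81, so these values set only replicate 3 apart. That 1 goes with 1 and 2 with 2 is given by the titles alone, and the blocked fits and counts over pairs rest on it. A GC-corrected fit (loess, span 0.5, per library) used the replicate number as a block. Scripts were tested on simulated data. All library pairs differed by more than sampling noise, with a chi-square of 3.16 or more per gene. Intervals on reads are exact, at 95%.

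The members and gene lists were chosen with earlier results of these data known. Values per library are given for members past the threshold in a fit, for the 3 members of each step group with the smallest p and for the 2 highest and the lowest by mean; up to 4 genes of each other pathway list are named by p. The 4 GPI-anchored proteins without overlap and the cell markers are named beside these, chosen after their values were seen. LY6E is among the genes named by p, but its value in replicates 1 and 2 alone was picked after it was seen. Values per library of PIGA, DPM1, ALG8 and RPN2 were added, chosen after their values were seen. Promoter sequences and motif windows are from RefSeq (GRCh38.p14), with 38 of 45 members matched by symbol. The alternatives tried were other pseudocounts, filters, trend and scaling settings, the block, and leaving out libraries or pairs.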

Additional observations from a re-analysis of the deposited data

How the results depend on the processing

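Genes called numbered 0 without the block, 0 with the replicate block, 526 with the GC correction and the block and 629 with replicates 1 and 2 alone, and members called numbered 0, 0, 2 and 2. With the replicate block alone no call changed. Leaving out a library or pair gave 0 to 677 genes and 0 to 2 members, and with the GC correction and the block 19, 7 and 677 genes without replicate pairs 1, 2 and 3. Leaving out libraries or pairs moved the median of the GPI anchor steps between -0.11 and 0.15, of the dolichol steps between -0.33 and 0.047 and of oligosaccharyl transfer between -0.20 and -0.033; without the filter the dolichol median was -0.038. DDOST was -0.021 in the fit without a block but 0.017 with limma-voom, 0.031 with the GC correction and block and 0.078 in replicates 1 and 2. Left-out libraries or pairs moved DDOST between -0.23 and 0.29, ALG1 between -0.59 and 0.14, ALG3 between -1.06 and 0.089, DPM2 between -0.57 and 0.45, DPM3 between -0.82 and 0.36, GPAA1 between -0.71 and 0.54, PIGS between -0.19 and 0.27 and STT3B between -0.49 and 0.19. Each of these gene extremes over all such settings came without a replicate 3 library. With the GC correction and the block, leaving out a pair put DDOST between -0.016 and 0.094, PIGS between -0.013 and 0.096, STT3B between -0.22 and 0.019 and DAD1 between -0.16 and -0.065. It put the median of the GPI anchor steps between -0.011 and 0.056, of the dolichol steps between -0.12 and -0.087 and of oligosaccharyl transfer between -0.10 and -0.053. PIGW, RPN1, DAD1 and STT3A stayed below 0 and PIGX and PIGK above 0 in every setting run. Of 248 values for 14 named members, 217 kept direction and side, 25 changed direction and 6 passed the threshold only in an alternative; the cause was not tested. The planned quasi-likelihood count test was not run, since the deposited unit is FPKM.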
